A study of Mus musculus with 6 samples.

Results

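The 10 genes described here encode S100 calcium-binding proteins and their annexin partners. They are S100a4, S100a6, S100a8, S100a9, S100a10, S100a11, Anxa1, Anxa2, Anxa5 and Anxa6, and they were taken by symbol from a table of 13709 gene rows, in which all 10 had a row. Their counts were measured by bulk RNA-Seq in regulatory T cells (Tregs) sorted as CD4+, CD25+ and YFP+ from 3 WT and 3 KO C57BL/6 samples. The methods of the study give an age of 2 weeks, with WT mice being Foxp3Cre and KO mice Foxp3Cre Zfp335fl/fl, so that both genotypes carried the Cre recombinase and YFP made from the Foxp3 locus and KO mice also carried floxed Zfp335, which encodes a zinc finger protein. The labels call the WT animals littermates and name both spleen and lymph nodes as the source. Pooling of mice is not stated, so p-values measure the spread between these samples. Cre was driven in the Tregs of the whole animal, so the loss of Zfp335 within a Treg and the surroundings in a KO animal cannot be told apart.

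S100 proteins are small proteins with EF-hand loops that bind calcium, and most of them form dimers that then attach to a target protein. Annexins bind membrane phospholipids when calcium rises, and several annexins hold an S100 dimer as a partner, as Anxa2 does with S100a10 and Anxa1 with S100a11. In T cells, S100a4, S100a6 and Anxa2 are known as genes of effector and memory cells. S100a8 and S100a9 together form calprotectin, a protein best known from neutrophils and monocytes.

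All 10 genes were higher in every KO sample than in any WT sample, and of the 8 that had counts in WT, 6 passed the test. Anxa1 rose 12.6-fold, Anxa2 rose 4.66-fold and S100a6 rose 2.77-fold, and Anxa6, S100a11 and S100a4 rose between 1.78-fold and 1.85-fold. S100a8 and S100a9 had no count in WT and were detected in each KO sample. They passed the filter on low counts through the KO samples alone, so that they had to differ, and their calls, which bring the number called to 8, are given as a description. S100a10 and Anxa5 were 1.44-fold and 1.38-fold higher in KO with adjusted p-values of 0.00562 and 0.00623 (edgeR quasi-likelihood test), and they were not called because a call also required a fold change above 1.5. A call here means a fold change above 1.5, p under 0.05 and adjusted p under 0.1, and it was made for 11.9% of the 13594 genes tested in the higher direction and for 12.5% in the lower direction, in which 0 of the 10 genes were called by edgeR or DESeq2 and 0 had an unadjusted p under 0.05. Over all genes tested, 26.2% had every KO sample above every WT sample. The median log2 fold change was 1.18 over the 10 genes and -0.04 over all genes tested. S100a8 and S100a9, which had to differ, raise the median of the 10 genes. Their lower bounds also lie above it, so using the bounds could not change it. Over the 8 genes with counts in WT, the median lies between S100a11 at 0.86 and Anxa6 at 0.89. In bulk samples of this kind, a larger share of cells that express a gene and more RNA of it per cell cannot be told apart.

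Expression is given as CPM, a count scaled to a fixed library size after TMM normalization. The total count per sample was 32032631 to 40728419, at which 3 counts, the smallest level taken as different from 0, came to 0.0747 to 0.0913 CPM. The sorted cells had the defining genes of Tregs, with mean CPM in WT and KO of 857 and 465 for Foxp3, 1038 and 958 for Il2ra, and 659 and 788 for Cd4. Foxp3 was called lower at a log2 difference of -0.88. Without WT replicate 3 its difference of -0.57 (adjusted p 1.27e-06 by edgeR) missed only the fold cutoff, and it was not called. Zfp335 itself had CPM of 99.4 ± 4.50 in WT and 38.3 ± 1.66 in KO (SD, n = 3), in the direction of the labels. WT replicate 3 stood apart from WT replicates 1 and 2 on the second principal component (at -41.5 against 19.3 and 22.7), and the biological coefficient of variation was 0.268 within WT, 0.128 for WT replicates 1 and 2 alone, and 0.0705 within KO. Results are therefore also given without WT replicate 3 where it mattered.

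**Figure D1:**
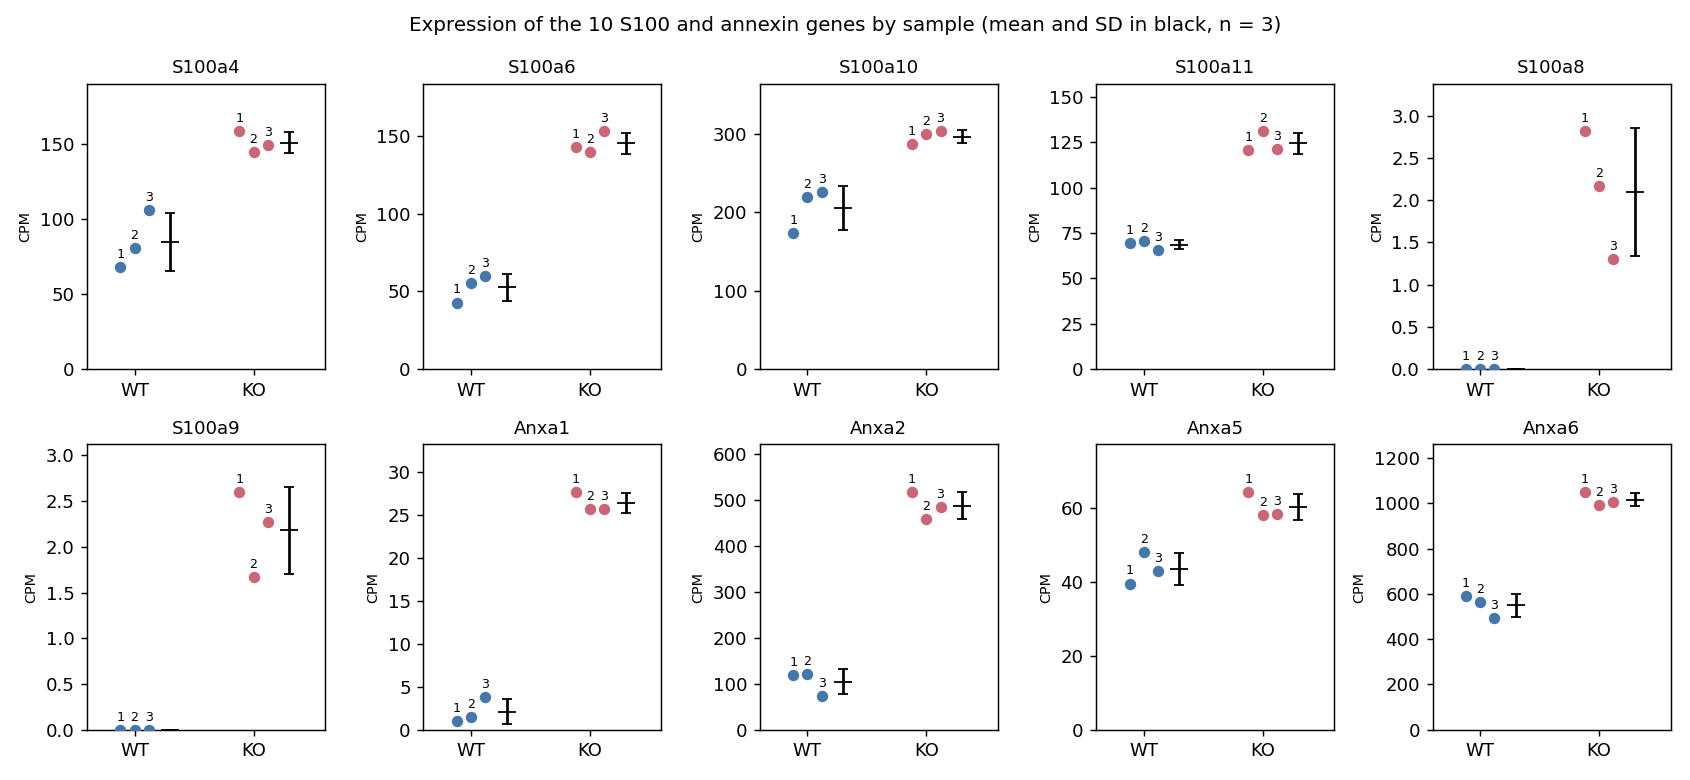
Expression in CPM (vertical axes, each from 0) of the 10 genes in WT (blue) and KO (red) samples, with the replicate number above each point and the mean and SD of 3 samples in black. In each of the 10 panels the KO samples sit above the WT samples, and WT replicate 3 is the highest WT sample for Anxa1 and S100a4 and the lowest for Anxa2.

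The 6 S100 members lie on chromosome 3, and the promoters of 5 members are shown because these genes rose in KO from unlike starting levels. The RefSeq promoter table of GRCm38.p6, the assembly that mm10 names, held 8 of the 10 genes, S100a10 and Anxa6 being the ones not matched. The 120 bases before each annotated transcription start are written 5′ to 3′ on the strand of the gene, with TATAAA, a core promoter element, in capitals.
S100a8, chr3:90668951-90669070, plus strand: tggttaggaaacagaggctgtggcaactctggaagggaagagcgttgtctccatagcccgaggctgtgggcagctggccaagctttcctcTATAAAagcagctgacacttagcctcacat
S100a4, chr3:90603650-90603769, plus strand: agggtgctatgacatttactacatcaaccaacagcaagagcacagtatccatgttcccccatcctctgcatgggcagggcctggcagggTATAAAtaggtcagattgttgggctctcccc
S100a6, chr3:90612774-90612893, plus strand: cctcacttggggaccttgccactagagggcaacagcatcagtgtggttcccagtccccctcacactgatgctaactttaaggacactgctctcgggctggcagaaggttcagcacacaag
Anxa1, chr19:20390672-20390791, minus strand: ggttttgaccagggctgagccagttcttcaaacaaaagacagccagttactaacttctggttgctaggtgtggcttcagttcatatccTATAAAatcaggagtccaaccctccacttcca
Anxa2, chr9:69453563-69453682, plus strand: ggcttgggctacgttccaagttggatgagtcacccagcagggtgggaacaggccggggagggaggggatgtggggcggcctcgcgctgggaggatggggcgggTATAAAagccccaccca
Searched on both strands of the 300 bases around the start, TATAAA was found in 5 of the 8 promoters (S100a4, S100a8, S100a9, Anxa1 and Anxa2) and in 14.1% of 27025 mouse promoters of that length, taken 1 per gene. It began 31, 30, 32 and 17 bases before the start in S100a4, S100a8, Anxa1 and Anxa2, and at the annotated start itself in S100a9. TGANTCA, the letters bound by AP-1, was found in Anxa2 and S100a11 and in 7.91% of all promoters. GGGCGG was found in Anxa2, S100a11 and S100a9 and in 35.6% of all promoters, and CCAAT in S100a6 and in 37.8%. These letters were chosen after the sequences had been seen, and a match is a description of the window.

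S100a4, known for binding the heavy chain of non-muscle myosin IIA, lies on chromosome 3 at 90603770 to 90606045 (mm10). It was at 67.9, 80.8 and 105.8 CPM in WT replicates 1 to 3 and at 158, 145 and 149 CPM in KO replicates 1 to 3. The KO samples lay close together and above all WT samples, while WT replicate 3 was 1.42 times the mean of WT replicates 1 and 2. It rose by 0.83 on the log2 scale (SE 0.15, adjusted p 0.0037 by edgeR), and by 1.02 without WT replicate 3. When the test was made against a fold change of 1.5 itself (glmTreat), S100a4 was not past the threshold (adjusted p 0.146). A transcript of the gene Gm42674 shares 302 bases with S100a4 at 100% identity, so counts of S100a4 are uncertain to that extent.

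S100a6, or calcyclin, is the next member on chromosome 3, at 90612894 to 90614414, with S100a5, not analysed here, annotated between them. It was at 42.7, 55.1 and 59.7 CPM in WT and at 143, 140 and 153 CPM in KO replicates 1 to 3. No KO sample came near the WT range, and S100a6 had the largest fold change of the 4 S100 genes that had counts in WT. S100a6 rose by 1.47 on the log2 scale (SE 0.12, adjusted p 0.000143 by edgeR). Leaving out 1 sample at a time moved it between 1.34 and 1.57.

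S100a11, a partner of Anxa1, and S100a10, the partner of Anxa2, lie together at the far end of the S100 genes, S100a11 at 93520496 to 93526288 and S100a10 at 93555117 to 93564645. S100a11 was at 69.3, 70.4 and 65.7 CPM in WT and at 121, 131 and 121 CPM in KO. The WT samples agreed more closely for this gene than for any other member with counts in WT, with an SD of 2.45 CPM around a mean of 68.5 CPM. S100a11 rose by 0.86 on the log2 scale (SE 0.07, adjusted p 0.000108 by edgeR). In GENCODE M21, 5 processed pseudogenes share 90% or more of 227 to 303 bases with S100a11, Gm12854 at 98.99% and Gm7665 at 98.65%, so some of its reads may have been placed elsewhere.

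S100a10 differs from other S100 proteins in that its loops do not need calcium to hold Anxa2. It was the most abundant S100 gene, at 174, 219 and 225 CPM in WT and at 287, 300 and 304 CPM in KO. The groups did not overlap, and WT replicate 1 lay apart below the other WT samples. On the log2 scale the difference was 0.53 (SE 0.10), under the 1.5-fold cutoff of 0.585. Without WT replicate 3 it was 0.59 and passed the cutoff (edgeR adjusted p 1.71e-05), so whether S100a10 counts as called rests on that sample.

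S100a8 and S100a9 lie at 90669071 to 90670034 and at 90692630 to 90695721 on chromosome 3. Both had 0 counts in WT replicates 1, 2 and 3. S100a8 had 103, 87 and 46 counts in KO replicates 1 to 3, which is 2.82, 2.17 and 1.30 CPM. S100a9 had 95, 67 and 80 counts, or 2.60, 1.67 and 2.27 CPM. Each KO library was thus above 0, and the lowest was 14.3 times the floor for S100a8 and 18.3 times for S100a9. Set against 3 counts in a WT library, the KO mean of S100a8 was at least 23.0-fold higher and that of S100a9 at least 23.9-fold higher. The fitted fold changes of these genes depend on the prior count and are not given. Both remained low genes in KO, ranked 10782 and 10736 by mean CPM among the 13709 rows.

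S100a8 made up 52.0% of the counts of both genes in KO replicate 1 (exact binomial 95% interval 44.8 to 59.1%), 56.5% in KO replicate 2 (48.3 to 64.5%) and 36.5% in KO replicate 3 (28.1 to 45.5%). The interval of KO replicate 3 did not reach that of KO replicate 2 and overlapped that of KO replicate 1. The share over all KO samples was 49.4% (44.8 to 53.9%). The intervals express counting error alone and take each read as a separate molecule, so reads copied by PCR would make them too narrow.

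Markers of other cells were examined beside S100a8 and S100a9. Of 14 neutrophil markers, 5 were analysed (Ltf, Lcn2, Cxcr2, Csf3r and Mmp9). Their summed CPM was 2.69, 3.65 and 6.22 in WT replicates 1 to 3 and 4.08 to 5.75 over the KO samples, so the genotypes overlapped through WT replicate 3 alone. The receptor gene Csf3r was called higher (mean CPM 0.251 in WT, 1.48 in KO) and the other 4 were not. Without WT replicate 3 there were 3 called higher, Csf3r, Lcn2 and Mmp9. Lcn2 had 0 counts in WT replicates 1 and 2, so in that fit it had to differ, and its call is a description. Mmp9 had 129 counts in WT replicate 3, more than in any KO sample. The granule genes Mpo, Elane, Camp and Ngp and the surface marker Ly6g were not analysed here. Of 13 monocyte and macrophage markers tested, 9 were called higher and Cebpa lower, beside 11.9% higher and 12.5% lower of all genes tested. The sums over these markers ran from 43.7 to 46.9 CPM in WT and from 78.6 to 84.8 CPM in KO. The most abundant was Lyz2, which encodes lysozyme, at 10.3 and 19.5 CPM. Without WT replicate 3 its log2 difference of 0.55 (adjusted p 0.00088 by edgeR) fell under the fold cutoff, and Lyz2 was not called. Fcer1g was called in that fit. Itgam, Csf1r and Clec7a were at 3.02 and 13.2 CPM, 1.52 and 6.93 CPM, and 0.184 and 3.61 CPM in WT and KO. Cd68 and Cybb, more abundant than these in WT, were at 8.95 and 10.1 CPM and at 8.28 and 8.52 CPM and were not called. Cebpa fell from 6.68 to 3.66 CPM. The part of the cells with these markers in the levels of S100a8 and S100a9 was not tested.

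Summed levels of the remaining marker lists were low beside the Treg genes. Calls in these lists stand beside 11.9% higher and 12.5% lower of all genes tested. Dendritic cell markers summed to 2.41 to 4.24 CPM in WT and 8.92 to 11.7 CPM in KO, where Itgax was called higher, from 0.436 to 7.03 CPM. CD8 T and NK cell markers summed to 12.9 to 19.0 and 27.0 to 28.9 CPM, with Eomes, Klrb1c and Cd8a called higher and the most abundant, Cd8b1, at 9.16 and 8.69 CPM. B cell markers summed to 18.7 to 20.7 CPM in WT and 12.8 to 13.7 CPM in KO, and Cd79b was called lower. Erythroid genes summed to 16.3 to 69.2 and 29.3 to 35.5 CPM, and of 4 tested, led by Hbb-bs, 0 were called by edgeR, 0 had an unadjusted p under 0.05 and DESeq2 called 1 (Hba-a1). Without WT replicate 3, the lowest for these genes, Hbb-bs and Hba-a1 were called lower. No call of the dendritic, B or CD8 T and NK cell lists was gained or lost without that sample.

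**Figure D2:**
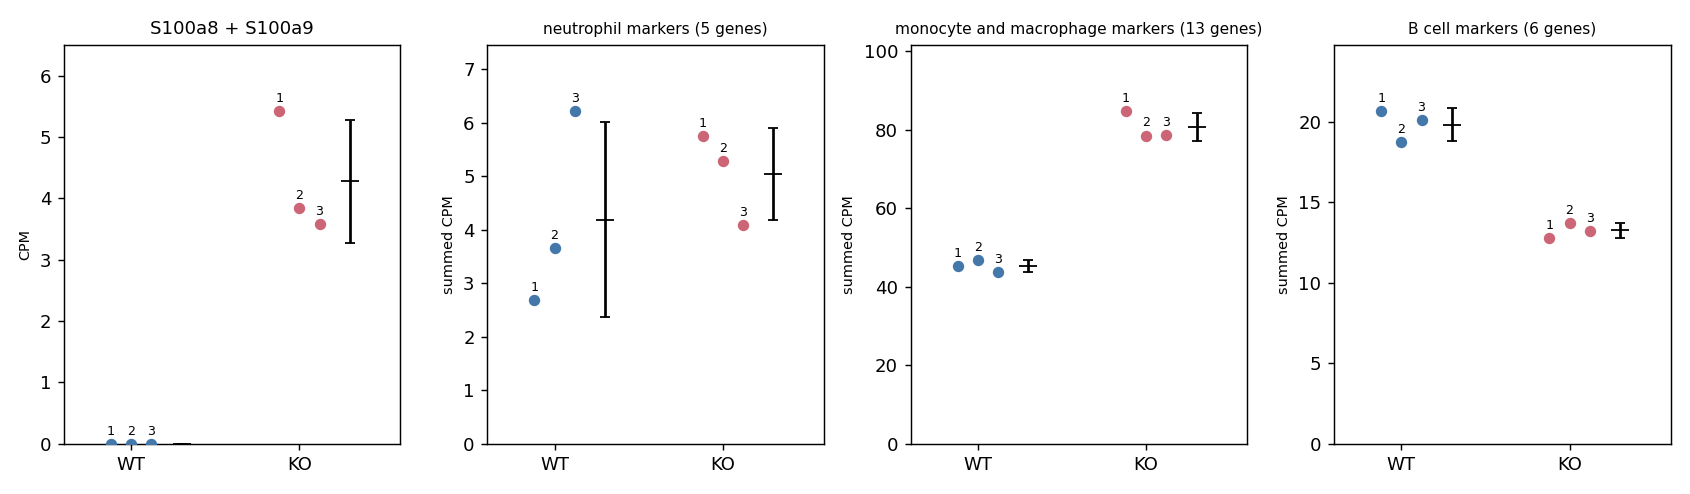
Summed CPM (vertical axes, each from 0) of S100a8 and S100a9 and of the analysed neutrophil, monocyte and macrophage, and B cell markers in WT (blue) and KO (red) samples, with mean and SD of 3 samples in black. S100a8 and S100a9 are at 0 in the 3 WT samples, the neutrophil sum of WT replicate 3 (6.22) lies above the KO samples (4.08 to 5.75) and those of the other WT samples (2.69 and 3.65) below them, and the monocyte and macrophage sums are 43.7 to 46.9 in WT and 78.6 to 84.8 in KO.

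Among the annexins, Anxa1 is known as a protein induced by glucocorticoids that acts on formyl peptide receptors. Anxa1, on chromosome 19 at 20373434 to 20390671, was at 1.06, 1.49 and 3.75 CPM in WT and at 27.7, 25.7 and 25.7 CPM in KO. Anxa1 was scarce in WT, with 39, 49 and 125 counts, and WT replicate 3 was 2.94 times the mean of the other two. A rise of 3.65 on the log2 scale (SE 0.41, adjusted p 0.000491 by edgeR) placed it at rank 136 of the 13594 genes tested. Without WT replicate 3 the rise was 4.37, and without WT replicate 1 it was 3.33.

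Anxa2, which scaffolds membrane and cytoskeleton and binds plasminogen together with S100a10, lies on chromosome 9 at 69453683 to 69491792. It was at 119, 122 and 72.3 CPM in WT and at 517, 459 and 486 CPM in KO. Here WT replicate 3 was the lowest WT sample, at 0.599 times the mean of WT replicates 1 and 2, the opposite of its place for Anxa1 and S100a4. Anxa2 rose by 2.22 on the log2 scale (SE 0.19, adjusted p 0.000161 by edgeR), and by 2.01 without WT replicate 3. By mean CPM, Anxa2 was ranked 2301 among the rows in WT and 302 in KO.

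Anxa6, an annexin with a duplicated core that binds membranes and actin, lies on chromosome 11 at 54978953 to 55033471. It had the highest CPM of the 10 genes, at 591, 565 and 492 in WT and at 1050.0, 992 and 1007 in KO. All KO samples were above all WT samples, and WT replicate 3 was the lowest. Anxa6 rose by 0.89 on the log2 scale (SE 0.08, adjusted p 0.000232 by edgeR), and by 0.81 without WT replicate 3. Anxa6 overlaps the long noncoding RNA gene Gm19911, so part of its counts may belong to that gene.

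Anxa5, whose protein binds phosphatidylserine and is used to stain dying cells, lies on chromosome 3 at 36448923 to 36475887, apart from the S100 genes. It was at 39.5, 48.1 and 42.9 CPM in WT and at 64.3, 58.0 and 58.3 CPM in KO. The groups did not overlap, but the log2 fold change of 0.47 (SE 0.09, edgeR adjusted p 0.00623) was the smallest of the 10. It stayed under the fold cutoff in each fit that left out a sample, between 0.40 and 0.54.

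**Figure D3:**
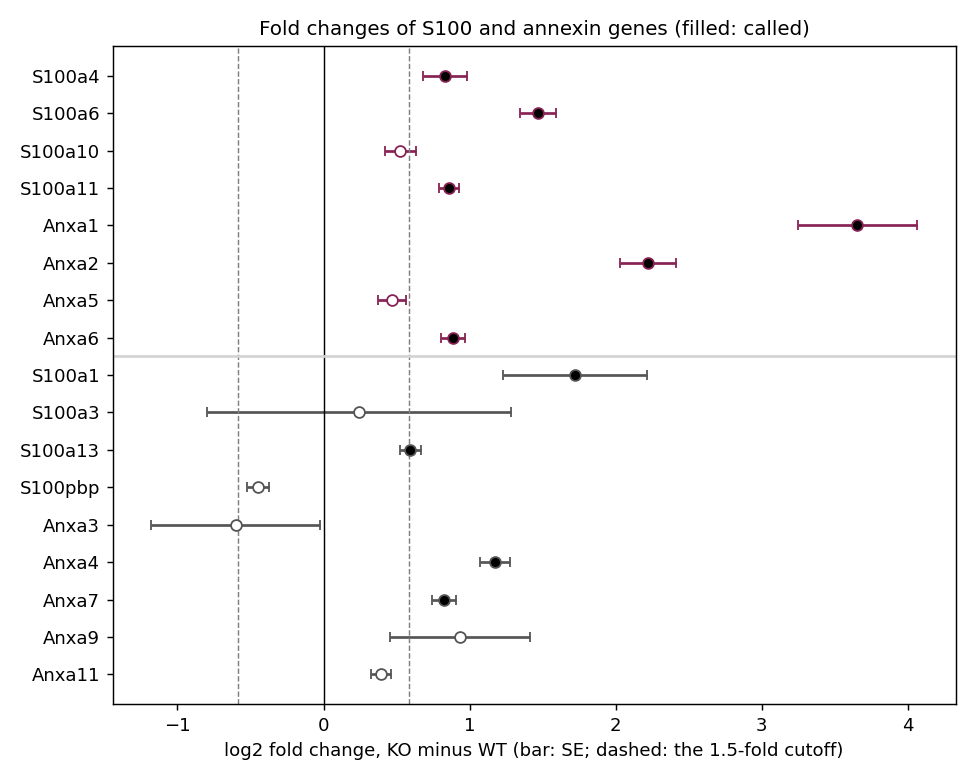
Log2 fold changes of KO against WT (horizontal axis, bars are SE) of the 8 members with counts in WT and, under the grey line, of the 9 further genes of the family list. Filled points passed the test, and the dashed lines mark a fold change of 1.5, which S100a10 at 0.53 and Anxa5 at 0.47 did not reach.

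Levels were compared between genes per kilobase of the longest coding transcript in GENCODE M21. In WT, S100a10 was first at 301 ± 41.1 CPM per kb (SD, n = 3), followed by Anxa6 at 221 ± 20.6, S100a4 at 170 ± 38.7 and S100a11 at 134 ± 4.80. Samples of Anxa6 and S100a4, of S100a4 and S100a11, and of Anxa2 and S100a6 overlapped in WT. Compared within each WT sample, S100a4 was always above S100a11, while the other pairs changed order in WT replicate 3. Anxa2 at 72.3 and S100a6 at 71.8 CPM per kb came next, then Anxa5 at 25.1 and Anxa1 at 1.26 CPM per kb.

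In KO the order changed at 1 gene. Anxa2 moved from the fifth place to the third, at 337 ± 20.3 CPM per kb, where its samples overlapped those of S100a4 at 303. Within each KO sample, Anxa2 was above S100a4. S100a10 and Anxa6 were first and second at 433 ± 12.7 and 408 ± 12.2 CPM per kb, with overlapping samples. S100a11, S100a6, Anxa5 and Anxa1 followed at 243, 199, 34.8 and 15.8 CPM per kb, each clear of its neighbours, and S100a8 and S100a9 were last at 4.31 and 4.20. Summed over the members in CPM, the S100 genes were at 354 to 457 in WT and 714 to 731 in KO, and the annexins at 611 to 751 and 1534 to 1659.

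**Figure D4:**
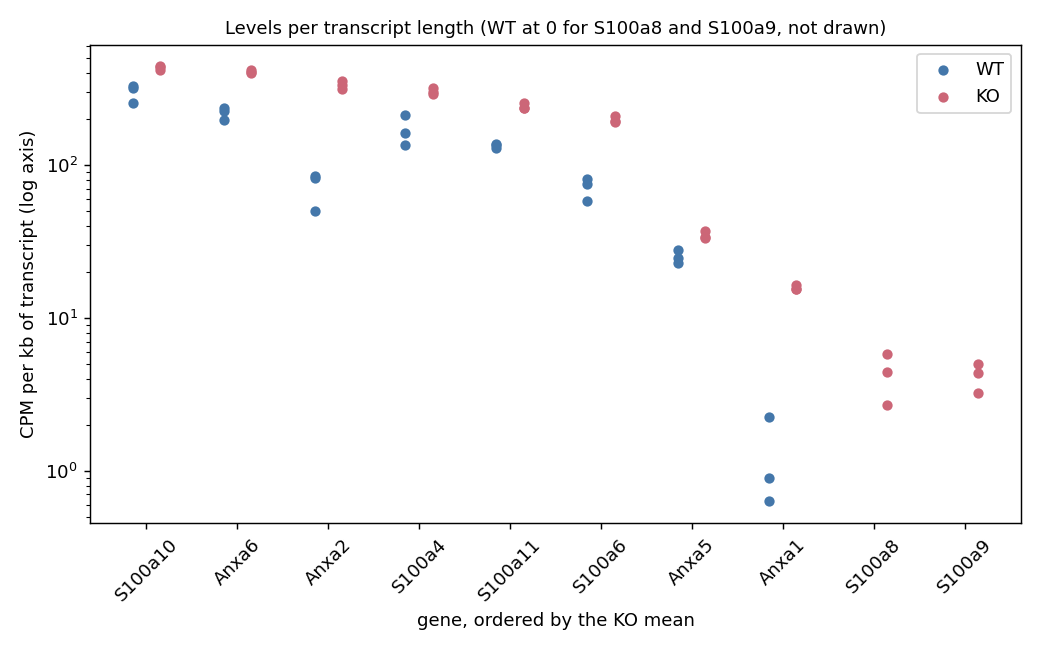
Levels in CPM per kilobase of transcript (vertical log axis) of the 10 genes in each WT (blue) and KO (red) sample, ordered by the KO mean. S100a8 and S100a9 were at 0 in WT and are drawn for KO only, and Anxa2 rises from a WT mean of 72.3 to a KO mean of 337.

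Since S100a10 and Anxa2 act as 1 complex, their ratio was described in each sample. S100a10 was 1.46, 1.79 and 3.12 times Anxa2 by CPM in WT replicates 1 to 3, and 0.555, 0.654 and 0.625 times in KO replicates 1 to 3. The mean ratio was 2.12 ± 0.88 in WT and 0.611 ± 0.051 in KO (SD, n = 3), and no sample of one genotype reached the range of the other. Per kilobase of transcript the ratio was 4.49 in WT and 1.29 in KO. S100a10 was thus the more abundant transcript per length in all 6 samples, and by CPM in the WT samples.

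**Figure D5:**
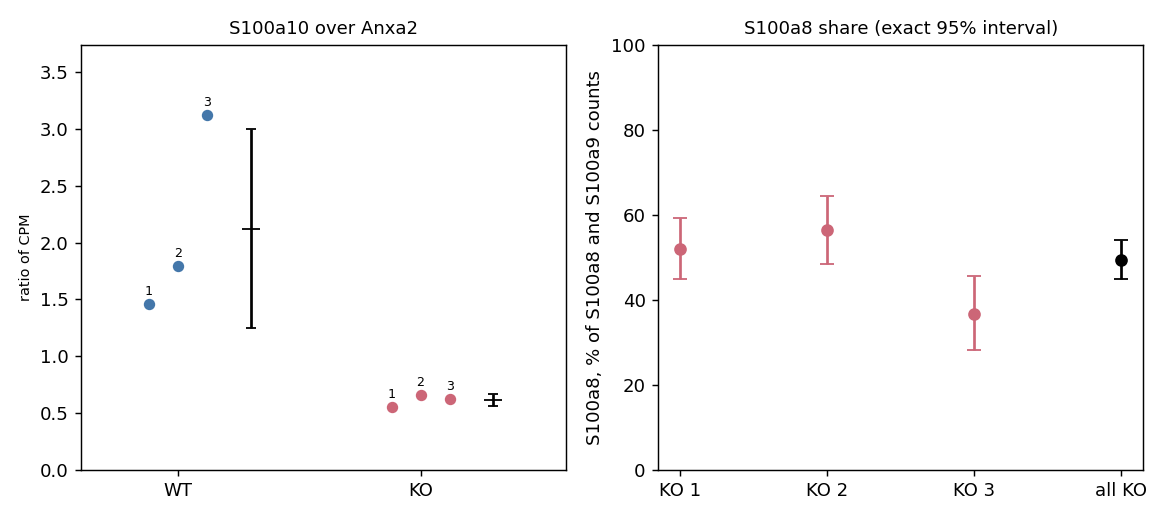
Left, the ratio of S100a10 to Anxa2 CPM (vertical axis) in each WT and KO sample with mean and SD in black (2.12 in WT, 0.611 in KO). Right, S100a8 as a percentage of the S100a8 and S100a9 counts in each KO sample and in all KO samples, with exact 95% intervals, 36.5% in KO replicate 3 and 52.0 and 56.5% in KO replicates 1 and 2.

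The rest of the family was taken from a list of 20 genes, of which 9 were tested. Anxa4, Anxa7, S100a13 and S100a1 were called higher in KO and 0 were called lower by edgeR or DESeq2, with 1, S100pbp, lower at an unadjusted p under 0.05. The shares over all genes tested were 11.9% higher and 12.5% lower. Anxa4, an annexin best known from epithelia, was at 11.1, 10.8 and 10.2 CPM in WT and at 24.9, 22.7 and 24.8 CPM in KO, a rise of 1.17 on the log2 scale (SE 0.10, adjusted p 0.000155 by edgeR). Anxa7, which binds sorcin, was at 41.8, 44.6 and 46.8 CPM in WT and at 84.8, 76.6 and 74.9 CPM in KO, a rise of 0.83 (SE 0.08, adjusted p 0.000298 by edgeR). S100a13 rose from 29.9 ± 0.67 to 45.1 ± 1.16 CPM at a log2 fold change of 0.59, just past the cutoff. Without WT replicate 3 its value of 0.57 was just under the cutoff, and it was not called. S100a1, with CPM of 0.507 ± 0.260 in WT and 1.68 ± 0.26 in KO, overlaps S100a13, so the counts of both are uncertain. The most abundant gene not called was Anxa11, with CPM of 137 ± 7.60 in WT and 180 ± 3.48 in KO (adjusted p 0.00298 at a log2 difference of 0.39). S100pbp, a gene named for binding an S100 protein and not itself an S100 gene, had a log2 fold change of -0.45 and was not called. Anxa9, Anxa3 and S100a3 had a mean of at most 1.27 CPM in each group and were not called. The median log2 fold change over the 9 genes was 0.59, beside -0.04 over all genes tested.

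From S100a1 to S100a10, chromosome 3 holds 70 protein-coding genes in the RefSeq annotation, between 90511034 and 93564645, of which 15 are S100 genes. Of these 70 genes, 10 were analysed here, 9 S100 genes and Tdpoz8. The S100 genes called higher were 7, beside 11.9% of all genes tested. They include the members S100a4, S100a6 and S100a11 described above, and S100a8 and S100a9, which had to differ. The others were S100a1 and S100a13, which overlap each other. Tdpoz8 had a mean CPM of 0.418 in WT and 0.245 in KO and was not called. As the only other gene analysed, and a low one, it gives no comparison for the region.

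Genes whose proteins bind S100 proteins or annexins, or act as their receptors, were examined as a list of 19, of which 16 were tested. Capn2, Pla2g4a and Fpr2 were called higher, Fpr2 having passed the filter through KO counts alone. Plgrkt was called lower, and 12 were not called (median log2 fold change 0.20). Over all genes tested, 11.9% were called higher and 12.5% lower, so these calls are given as a description of single genes. Capn2, a calcium-dependent protease, rose from 168 ± 4.94 to 337 ± 10.2 CPM (adjusted p 4.16e-05 by edgeR). Fpr2, a receptor of Anxa1, had no count in WT and 11, 29 and 40 counts in KO replicates 1 to 3, and its KO mean of 0.719 CPM was at least 7.87-fold higher. Pla2g4a, the cytosolic phospholipase A2 that Anxa1 is known to restrain, had a mean CPM of 0.238 in WT and 1.14 in KO. Plgrkt, a plasminogen receptor, fell from 110 ± 5.50 to 71.3 ± 5.11 CPM (adjusted p 0.000775 at a log2 difference of -0.63), and it overlaps Cd274, so its counts are uncertain.

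Several known targets of S100 proteins were not called. Of the 16 partners tested, 9 had an unadjusted p under 0.05 by edgeR, 7 of them higher and 2 lower in KO. Sugt1, Bsg and Pdcd6 were higher in every KO sample than in any WT sample. They were not called because their log2 differences of 0.43, 0.35 and 0.25 (edgeR adjusted p 0.00642, 0.00748 and 0.0488) were under the fold cutoff. Bsg was at 119 ± 8.26 and 152 ± 5.98 CPM in WT and KO. Myh9, the myosin that S100a4 binds, was the most abundant of the list at 2237 ± 278 CPM for WT and 2482 ± 20.4 CPM for KO (adjusted p 0.255 at a log2 difference of 0.15). Ahnak, a giant scaffold that binds the complex of S100a10 and Anxa2, was at 1009 ± 31.7 and 1001 ± 19.1 CPM (adjusted p 0.905). Cacybp, the calcyclin-binding protein, was at 63.3 ± 10.9 and 68.6 ± 2.59 CPM (adjusted p 0.499). Tlr4 and Ager are given here as receptors of S100a8 and S100a9, and Bsg of the same list is given above. Tlr4 was at 0.416 and 1.08 CPM and was not called. Ager, which encodes RAGE, had CPM of 33.9 ± 4.31 in WT and 25.8 ± 1.21 in KO. Every KO sample of Ager was below every WT sample. It was not called because its log2 difference of -0.39 (adjusted p 0.0251 by edgeR) was under the fold cutoff. Without WT replicate 3, Tlr4 passed as higher, with a log2 difference of 2.61.

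Genes commonly expressed together with S100a4, S100a6 and Anxa2 in effector and memory T cells were compared as a list of 12. Of these, 6 were called higher, Klrg1 lower, and 5 were not called (median log2 fold change 0.67). Among all genes tested, 11.9% were called higher and 12.5% lower, and the median was -0.04. The list was chosen with earlier results known, so its calls are given as a description of single genes. Lgals3 and Lgals1, which encode galectins, rose from 16.7 ± 1.80 to 273 ± 7.36 CPM and from 260 ± 62.0 to 1115 ± 74.3 CPM, at log2 fold changes of 4.03 and 2.10. Tagln2, an actin-binding protein, and Vim, the intermediate filament vimentin, rose at 1.83 and 1.37. Itgb1, the integrin beta 1 chain, and Flna, the actin crosslinker filamin A, rose at 1.38 and 0.86. Without WT replicate 3 these values were 1.12 and 0.73, and both genes were still called. Itgb1 was at 404, 415 and 208 CPM in WT replicates 1 to 3. Klrg1, an inhibitory receptor of differentiated T cells, fell from 29.8 ± 3.28 to 15.3 ± 0.71 CPM (adjusted p 0.000536 at a log2 difference of -0.96). Capg, an actin-capping protein, was lower in every KO sample than in any WT sample, at 310 ± 20.2 CPM against 211 ± 4.43 CPM, and was not called because its log2 difference of -0.55 (adjusted p 0.000869 by edgeR) was under the fold cutoff. Crip1 was higher in every KO sample and was not called because its log2 difference of 0.48 (adjusted p 0.00623 by edgeR) was under the cutoff. The most abundant gene not called was Itgb7, at 708 ± 23.3 and 868 ± 10.2 CPM. Its log2 difference of 0.30 (adjusted p 0.00711 by edgeR) was also under the cutoff. Cd44 was at 150 ± 24.7 and 139 ± 4.12 CPM (adjusted p 0.51), and Emp3 at 104 ± 17.2 and 105 ± 4.99 CPM (adjusted p 0.903).

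Over the 6 samples, the genes with log2 CPM most like each of 6 members were found among 9882 genes whose mean CPM reached 5, by Pearson's r. The likest gene had an r of 0.9985 for S100a4 (Blzf1), 0.9988 for S100a6 (Cwc15) and 0.9987 for S100a10 (Lin7c). It had an r of 0.9997 for Anxa1 (Map3k8), Anxa2 (Calr) and Anxa6 (Ldha). Calr and Gsn followed Anxa2 with WT and KO means of 462 and 809 CPM and of 26.6 and 59.3 CPM, and Ldha and Pkm followed Anxa6 with 573 and 1093 CPM and with 871 and 1582 CPM. With 6 samples in 2 genotypes these values mostly show the step between genotypes, and samples share depth and scaling, so they are a description.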

How the data were processed

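Counts of CD4+CD25+YFP+ Tregs from 3 WT and 3 KO samples were analysed. SOAPnuke was used to filter the reads, HISAT2 to align them to mm10 with a single alignment kept per read, and StringTie to quantify them, per the methods of the study. The authors deposited whole-number counts per gene without normalization. The origin of the whole numbers, the annotation and the use of strand were not given in the sources used here. The smallest sum of a row was 60, so genes with low counts were not in the analysed table.

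Totals per sample were 32032631 to 40728419 counts. Counts were tested with edgeR 4.0.16 in R 4.3.3 (filterByExpr at a minimum count of 10, TMM, glmQLFit and glmQLFTest, two-sided) over all 6 samples with no covariate, and p was adjusted by Benjamini-Hochberg over 13594 genes. Calls used the study's cutoffs, a fold change above 1.5, p under 0.05 and adjusted p under 0.1. SE is the log2 fold change divided by the square root of F. Alternatives were DESeq2 1.42.0, other scalings, filters and cutoffs, offsets for GC content and transcript length, a replicate block, and leaving out each sample. The procedure was tested on simulated data. Positions and promoters came from RefSeq (GRCm38.p6), lengths from GENCODE M21 (97.87% of symbols). Transcripts aligning to a member over at least 100 bases at 90% identity or more (BLAST) mark uncertain counts.

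The members and lists were chosen with earlier results of these data known. Named genes were all members, Zfp335, every called gene of the family, partner and effector lists with the most abundant one not called, and the leading markers, with further examples chosen after their values were seen. For likeness, log2 CPM had 0.5 added.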

Additional observations from a re-analysis of the deposited data

How the results depend on the processing

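Fits used DESeq2, RLE factors, library totals alone, no filter, GC content and length offsets, the replicate block, or left out each of 6 samples. In all of these, the 6 called members with counts in WT remained called. None of the 8 members with counts in WT changed direction in any fit run. S100a8 and S100a9 had no count in WT, so their direction was fixed. Their calls are included in the counts of members below as a description. Members called numbered 8 to 9 over the 6 fits with a sample left out, the ninth being S100a10 without WT replicate 3, and 0 were called lower. With at least 10 counts in every sample, S100a8 and S100a9 could not be tested and 6 members were called. With an adjusted p under 0.05 and no fold cutoff, all 10 members were called, beside 8 binding partners and 2610 higher and 2634 lower genes in all. With glmTreat, 7 members, 2 of the other S100 and annexin genes, and 941 higher and 745 lower genes were called.

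Over the fits with a sample left out, genes called higher ranged from 1414 to 1862 and lower from 1453 to 1805, other S100 and annexin genes called from 3 to 6, binding partners from 3 to 5 and effector memory genes from 7 to 8. With 3 counts taken over the WT libraries together, the bounds were 71.9-fold for S100a8 and 74.8-fold for S100a9. The ratio of S100a8 to S100a9 counts was 0.975 over all KO samples, 1.30 in KO replicate 2 and 0.575 in KO replicate 3. The ratio of S100a10 to Anxa2 per kilobase was 4.49 in WT and 1.29 in KO, since S100a10 is the shorter transcript.

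Samples that share a replicate number did not deviate together (correlations 0.058, 0.033 and -0.0042). With the replicate block, 8 members were called, S100a8 and S100a9 included as a description, among 1629 higher and 1561 lower genes. S100a8, S100a9 and Fpr2 are limited by depth, as 11 to 103 counts per KO sample carry them.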
